A study of Drosophila melanogaster with 6 samples.

Results

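The hypoxia pathway genes of the fly were examined in whole adult females that had spent a week on a high-fat diet (HFD) or a regular diet (RD), all in normal oxygen. The genes, chosen by name, were Hph, Vhl, sima, tgo, scyl, chrb and bnl, and every probe set annotated with a single one of these symbols was taken. Of the 7 genes, 6 had such a probe set, 9 probe sets in all, among 11982 genes named by 1 symbol on the array. The seventh, chrb, was not analysed here. Both diet groups were w1118 females, whose whole bodies were frozen at 10 to 12 days of age. They had moved to their diets at 3 to 5 days. HFD food held coconut oil at 20% weight per volume, and RD food was Jazz-Mix. Affymetrix arrays were hybridised with RNA of 3 HFD samples and 3 RD samples, and the labels leave unsaid whether these came from separate groups of flies. The p-values therefore cover the spread among these samples alone, which may be technical. The yolk protein gene Yp1, a marker of females, had a MAS5 signal of 8289 ± 409 on HFD and 8816 ± 511 on RD (SD, n = 3 each), while 4 of 6 genes of the male accessory gland and testis were too dim to be tested.

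In animals, cells sense oxygen through a transcription factor whose alpha subunit is made all the time and destroyed when oxygen is plentiful. In the fly that subunit is Similar (sima), and its partner is Tango (tgo). Hph, the prolyl hydroxylase also called Fatiga, uses oxygen, iron and alpha-ketoglutarate to mark Sima, and the ubiquitin ligase subunit Vhl binds the marked protein and sends it to the proteasome. When oxygen falls, Sima and Tango raise genes such as scyl and chrb, relatives of the mammalian REDD proteins that restrain growth through the TOR kinase, and bnl, the fibroblast growth factor that draws the air-carrying tracheal branches towards tissue. Much of this control acts on the Sima protein, which an array does not measure.

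Of the 6 genes measured, scyl rose on HFD by 1.21-fold, and Hph rose 1.40-fold in 1 of its 2 probe sets, with no change that passed in the other. The probe sets of Vhl, sima, tgo and bnl did not pass. The test was limma on log2(signal + 1), two-sided, with Benjamini-Hochberg adjustment over 11261 probe sets and a threshold of 0.05. Of the 9 probe sets, 7 were bright enough to be tested, with a mean above the 40th percentile of all probe sets, which is a signal of 27.9. Of these 7, 2 passed, both higher on HFD (28.6%), where 19.5% of all tested probe sets passed, 12.9% higher and 6.63% lower. For 3 of the 7 (42.9%) the HFD arrays did not overlap the RD arrays, as for 42.0% of all tested probe sets. With so few probe sets these shares were close to the background, so neither count sets the pathway apart. The median log2 fold change of the 7 was 0.13, and that of all tested probe sets 0.0083.

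**Figure D1:**
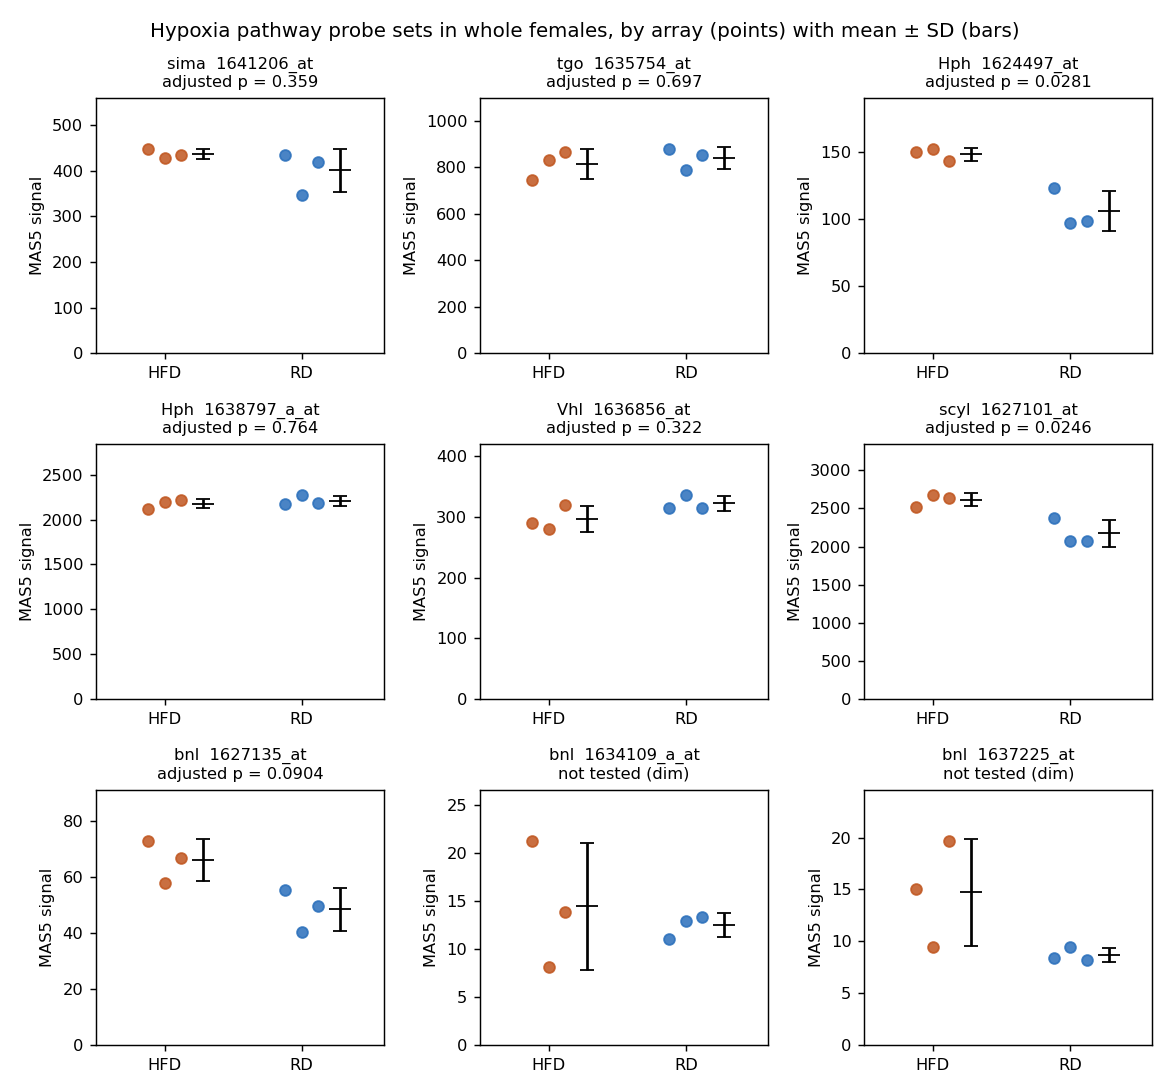
MAS5 signal (vertical axes, linear and from 0) of the 9 probe sets of the hypoxia pathway genes, with a point per array and the mean ± SD beside the points, HFD left of RD. The HFD points lie above all RD points for scyl, for Hph 1624497_at and for bnl 1627135_at, and overlap them elsewhere.

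Hph, the oxygen-sensing hydroxylase, was measured by 2 probe sets that differed in what they showed. Probe set 1624497_at had signals of 150, 153 and 143 on HFD arrays 1, 2 and 3, against 123, 97.0 and 98.8 on RD arrays 1, 2 and 3. Every HFD array lay above every RD array, and RD array 1 was the highest of the RD arrays. The log2 fold change was 0.49 ± 0.12 (SE; limma, adjusted p = 0.0281), with a 95% interval of 0.21 to 0.77. Probe set 1638797_a_at had signals of 2119, 2200 and 2214 on HFD, against 2170, 2276 and 2186 on RD. These overlapped, with a log2 fold change of -0.021 ± 0.046 (limma, adjusted p = 0.764). The 95% interval of that change was -0.13 to 0.085, which leaves out a change of the size seen in the first probe set.

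Within each array, the log2 signal of the first Hph probe set minus that of the second was -3.81, -3.84 and -3.94 on HFD, against -4.13, -4.54 and -4.45 on RD. A factor that scales a whole array does not move this ratio, which was 0.51 higher on HFD, without overlap (exact permutation test, two-sided, p = 0.1, the smallest that 3 against 3 arrays allow; the pair was chosen after the values were seen). A shift that differs with signal level can move it, as the first probe set is much dimmer than the second. Under quantile normalization the ratio was 0.31 higher on HFD, still at p = 0.1 by the exact permutation test. Hph is transcribed into more than a single form in the fly, and which transcripts each probe set reports is not stated in the labels or the annotation. The call of 1624497_at was lost under quantile normalization (adjusted p = 0.0706), with median centring (0.0899), and without HFD array 1, 2 or 3 or RD array 2 or 3 (0.0815, 0.0969, 0.0513, 0.0890 and 0.107).

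Vhl, the subunit that recognises hydroxylated Sima, had signals of 289, 279 and 320 on HFD, against 315, 336 and 315 on RD. HFD array 3 overlapped the RD arrays, and the log2 fold change was -0.12 ± 0.083 (limma, adjusted p = 0.322), with a 95% interval of -0.31 to 0.070. The planned ratio of Hph to Vhl took each gene's probe set with the highest mean signal, which for Hph is the second. Within an array, that probe set minus Vhl was 0.10 higher on HFD, with overlap (exact permutation p = 0.2). The difference moved to 0.19 under quantile normalization, without overlap (exact permutation p = 0.1), and to 0.052 without HFD array 2. For the first Hph probe set, outside that choice and dimmer than Vhl, the difference was 0.61, without overlap (exact permutation p = 0.1). A shift that differs with signal level can move it too.

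Neither subunit of the factor itself passed. The signal of sima was 447, 427 and 433 on HFD, against 435, 347 and 418 on RD. The diets overlapped, since RD array 1 reached the HFD values, and RD array 2 was the lowest of all. The log2 fold change of sima was 0.13 ± 0.095 (limma, adjusted p = 0.359), and its 95% interval of -0.090 to 0.35 allows a rise of up to 1.27-fold. The signal of tgo, whose protein also pairs with other factors of the bHLH-PAS family, was 745, 832 and 866 on HFD, against 879, 789 and 851 on RD. HFD array 1 was the lowest and RD array 1 the highest, with the other arrays mixed, and the log2 fold change was -0.045 ± 0.076 (limma, adjusted p = 0.697; 95% interval -0.22 to 0.13). Neither direction held under every setting: sima was at -0.080 with median centring and tgo at 0.018 without HFD array 1. Within an array, the log2 signal of sima minus that of tgo was 0.17 higher on HFD, at -0.74, -0.96 and -0.999 on HFD and -1.01, -1.18 and -1.02 on RD. The values did not overlap, and HFD array 3 lay just above RD array 1 (exact permutation p = 0.1). The separation was lost under quantile normalization (0.13, exact permutation p = 0.4), and the difference was 0.093 without HFD array 1.

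**Figure D2:**
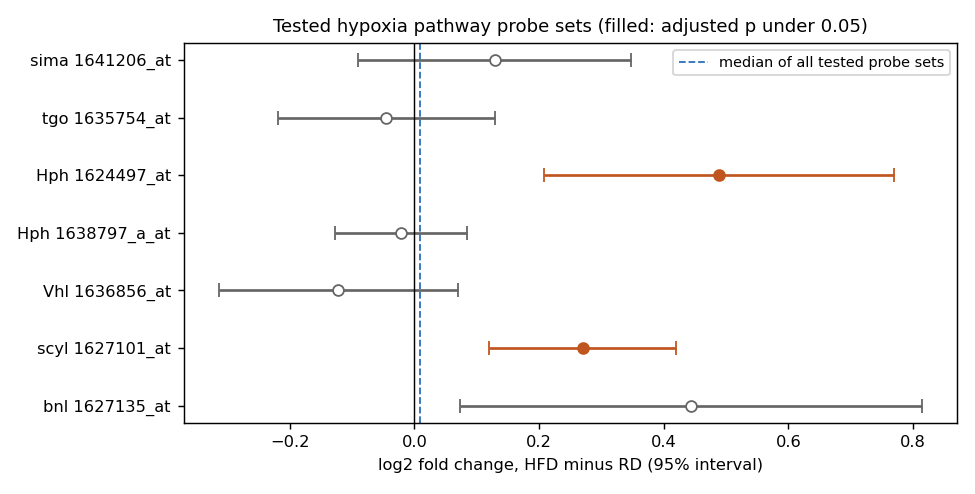
Log2 fold change, HFD minus RD, with its 95% interval (horizontal axis) for the 7 tested probe sets of the hypoxia pathway genes; filled points passed an adjusted p of 0.05 and the dashed line is the median of all tested probe sets. The intervals of scyl, Hph 1624497_at and bnl 1627135_at lie above 0, and those of sima, tgo, Vhl and Hph 1638797_a_at span 0.

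Among the genes that the factor raises in low oxygen, scyl, which restrains TOR signalling, was called. Its signals were 2521, 2678 and 2642 on HFD, against 2375, 2067 and 2073 on RD. All HFD arrays were higher, with RD array 1 closest to them. The log2 fold change was 0.27 ± 0.065 (limma, adjusted p = 0.0246), with a 95% interval of 0.12 to 0.42, or 1.09-fold to 1.34-fold. It remained positive under all 16 alternatives and was called under 9 of them. The call was lost with median centring (0.061, adjusted p = 0.504), with eBayes without a trend (adjusted p = 0.0656), and without HFD array 2, HFD array 3, RD array 2 or RD array 3 (adjusted p of 0.0872, 0.0663, 0.0684 and 0.0937).

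The growth factor gene bnl had 3 probe sets, of which 1 was tested. Probe set 1627135_at had signals of 73.0, 58.0 and 66.9 on HFD, against 55.4, 40.3 and 49.5 on RD. The arrays did not overlap, although HFD array 2 was only a little above RD array 1. The log2 fold change was 0.44 ± 0.16, with an unadjusted p of 0.0248 that did not pass after adjustment (limma, adjusted p = 0.0904; 95% interval 0.073 to 0.81). The other probe sets lay under the filter and were not tested. Probe set 1637225_at had 15.0, 9.41 and 19.7 on HFD, against 8.36, 9.45 and 8.15 on RD, and overlapped by a single array. Probe set 1634109_a_at had 21.3, 8.13 and 13.9 on HFD, against 11.1, 12.9 and 13.4 on RD, with the lowest and the highest values both on HFD.

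The estimates for scyl, Hph 1624497_at and bnl 1627135_at stood beside shifts in other measures of the same arrays. The actin control is probed at both ends of its transcript, and shorter RNA or labelled copy raises its 3'/5' signal ratio, which was 9.29, 8.35 and 8.93 on HFD, against 7.85, 4.90 and 5.69 on RD (exact permutation p = 0.1). The same ratio averaged 2.42 ± 0.147 for GAPDH and 10.3 ± 0.806 for eIF-4a on HFD, against 2.16 ± 0.235 and 7.78 ± 2.09 on RD, with overlap (exact permutation p = 0.2 each; SD, n = 3). RD array 1, the RD array with the highest signals of scyl, Hph 1624497_at and bnl 1627135_at, was also the highest RD array in this ratio. With that ratio added to the model, as a mean log2 value over the controls for actin, eIF-4a and GAPDH, scyl was at 0.16 (limma, adjusted p = 0.374), Hph 1624497_at at 0.29 (adjusted p = 0.416) and bnl at 0.12 (adjusted p = 0.817). The other Hph probe set, 1638797_a_at, was at 0.024 there (adjusted p = 0.907). In that model 2.36% of all tested probe sets passed, against 19.5% without the ratio. The actin ratio separated the diets, so with 3 arrays each the model can hardly tell ratio from diet. A call lost in it does not say whether the ratio accounts for the change.

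Whole bodies hold many tissues, and fewer cells of a type cannot be told apart from less RNA per cell. All 7 neuron markers tested rose, with a median log2 fold change of 1.01 and a summed signal of 1454 to 1589 on HFD, against 625 to 983 on RD. All 6 muscle markers tested rose (median 1.04), with sums of 8142 to 9622 on HFD and 3980 to 5394 on RD. Both photoreceptor markers tested rose, with a median of 1.05 and a summed signal of 1245 to 1308 on HFD, against 534 to 786 on RD. RD array 1 had the highest neuron, muscle and photoreceptor sums of the RD arrays.

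Of 3 tracheal markers tested, 2 rose, the chitin-binding protein gene Gasp (1.42 ± 0.18; limma, adjusted p = 0.00299) and serp (0.82 ± 0.16; adjusted p = 0.0127). Summed tracheal signal was 401 to 596 on HFD and 241 to 246 on RD. Tracheal btl, the receptor for bnl, lay under the filter, at 7.78, 12.7 and 14.4 on HFD and 7.33, 5.65 and 7.91 on RD. Of 3 haemocyte markers, Pxn rose (1.29), while Hml (0.056) and srp (-0.26 ± 0.12; adjusted p = 0.171) did not pass, with sums of 1024 to 1205 on HFD and 990 to 1241 on RD.

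The marker lists of fat body, of midgut, and of ovary and eggshell went the other way. Called lower were 4 of 5 fat body markers, 3 of 5 midgut markers and 4 of 7 ovary and eggshell markers. The fat body calls were Lsp2, apolpp, Yp2 and Gnmt, while Yp1 did not pass. Lsp2 lay under the filter on every HFD array and was tested only through its RD signals. The midgut calls were Jon25Bi (-3.41), Jon99Ci (-2.81) and Jon65Aiii (-0.45), while alphaTry (-0.14) and betaTry (-0.19) did not pass. The ovary and eggshell calls were the eggshell genes Vm26Aa, Vm32E, Cp16 and Cp18. The germline genes vas (0.13, limma, adjusted p = 0.493) and osk (-0.037, adjusted p = 0.514) did not pass. Neither did the eggshell gene Cp36 (-0.27, adjusted p = 0.136). Summed signals of the lists were 22187 to 24933 (fat body), 28385 to 32687 (midgut) and 32359 to 35101 (ovary and eggshell) on HFD. On RD they were 30351 to 33963, 38787 to 44921 and 45204 to 46669. Neither of the 2 male markers tested passed, with sums of 82.3 to 135 on HFD and 102 to 132 on RD. The part of the tissue markers in the values of the hypoxia genes was not tested. That of the 3'/5' ratio was not settled by the model above, where ratio and diet can hardly be told apart.

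**Figure D3:**
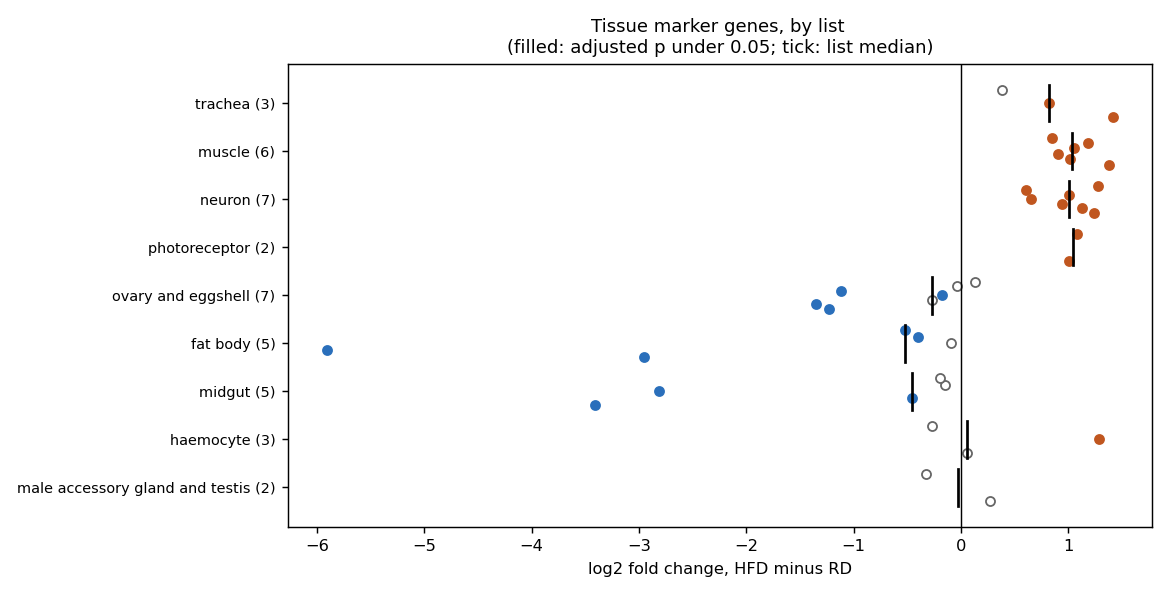
Log2 fold change, HFD minus RD (horizontal axis), of each tested tissue marker, by list with the number tested, where filled points passed an adjusted p of 0.05 and the black tick is the list's median. Every tested neuron, muscle and photoreceptor marker lies to the right; the point farthest left, Lsp2, had HFD signals under the filter, so its size was not measured.

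The genes that work beside these were followed in 9 lists with 89 genes, 66 of them named on the array and 50 tested. Of the 50, 7 rose and 2 fell on HFD, a balance that turned round with median centring, where 2 were called higher and 21 lower. As reported, that is 14.0% and 4.0%, against 12.2% higher and 6.98% lower among all genes tested with 1 probe set each. The median log2 fold change was 0.038 for the 50 and -0.0092 for all such genes. The 9 called genes kept their sign under all alternatives tried, and none of them passed once the 3'/5' ratio of the controls was modelled.

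The partners of Vhl in its ubiquitin ligase, Cul2, EloB, Roc1a and Roc1b, were tested and none passed (median -0.19), although all 4 were called lower with median centring. The adaptor EloB was nearest, with 1085, 1306 and 1233 on HFD, against 1343, 1537 and 1461 on RD. All HFD values lay below those of RD, at a log2 fold change of -0.26 ± 0.082 (limma, adjusted p = 0.0598). Other bHLH-PAS partners of Tango named on the array, ss and dysf, were under the filter.

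Downstream of bnl, none of 6 genes of the FGF pathway passed on the probe set with the highest mean signal (median 0.16). With median centring 1 was called lower and 0 higher, and with array weights 3 were called higher and 0 lower. The feedback inhibitor gene sty was at 0.49 ± 0.17 (limma, adjusted p = 0.0728), with a signal of 946 ± 50.2 on HFD and 687 ± 185 on RD. Modelling the 3'/5' ratio put it at 0.048 (adjusted p = 0.893), and it was called in 3 of 16 alternatives. A further probe set of sty, 1635677_a_at, named after its values were seen, had 613, 511 and 570 on HFD, against 391, 251 and 313 on RD. It rose without overlap, by 0.84 ± 0.15 (adjusted p = 0.00913).

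Of 11 insulin and TOR pathway genes, where scyl acts, 2 rose and none fell (median 0.15), whereas with median centring 0 were called higher and 2 lower. The insulin receptor gene InR had 926, 863 and 873 on HFD, against 768, 626 and 591 on RD, a rise of 0.43 ± 0.099 (limma, adjusted p = 0.0206). Its adaptor chico had 527, 511 and 533 on HFD, against 444, 419 and 387 on RD, a rise of 0.33 ± 0.073 (adjusted p = 0.0181). Neither gene's diets overlapped, and both calls were lost with median centring. The call of InR was lost without HFD array 1, 2 or 3 or RD array 2 or 3, and that of chico without HFD array 1, 2 or 3 or RD array 3. The Tsc complex genes, through which the REDD relatives act on TOR, did not pass: gig was at 0.19 ± 0.087 (adjusted p = 0.166) and Tsc1 at 0.010 ± 0.066 (adjusted p = 0.923).

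A list of glycolysis and lactate genes, which also holds Pdk and Glut1, had 1 of 10 tested genes higher and none lower (median -0.021). With median centring 0 were called higher and 5 lower, and with array weights 3 each way. Many of these genes rise in hypoxic flies. Ldh, PyK and Gapdh2, also listed, were not analysed here. The hexokinase gene Hex-A was at 1892, 1603 and 1643 on HFD, against 1524, 1199 and 1360 on RD, a rise of 0.33 ± 0.099 without overlap (limma, adjusted p = 0.0493). That call sat at the threshold and was kept in 5 of 16 alternatives. It was lost with median centring, quantile normalization, no filter, the filter at the 60th percentile and eBayes without a trend, and without HFD array 1, 2 or 3 or RD array 2 or 3. By values seen afterwards, the probe sets of Ald1 and Glut1 differed in what passed. Ald1 was at -0.15 (limma, adjusted p = 0.0921) in its leading probe set and passed in a further one (-0.41 ± 0.11, adjusted p = 0.0334). The sugar transporter gene Glut1 was at 0.092 ± 0.11 (adjusted p = 0.565) in its leading probe set and passed in 2 others (0.71 and 0.68). The probe sets of Pdk went opposite ways and did not pass (0.19, adjusted p = 0.0862, and -0.15, adjusted p = 0.378).

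**Figure D4:**
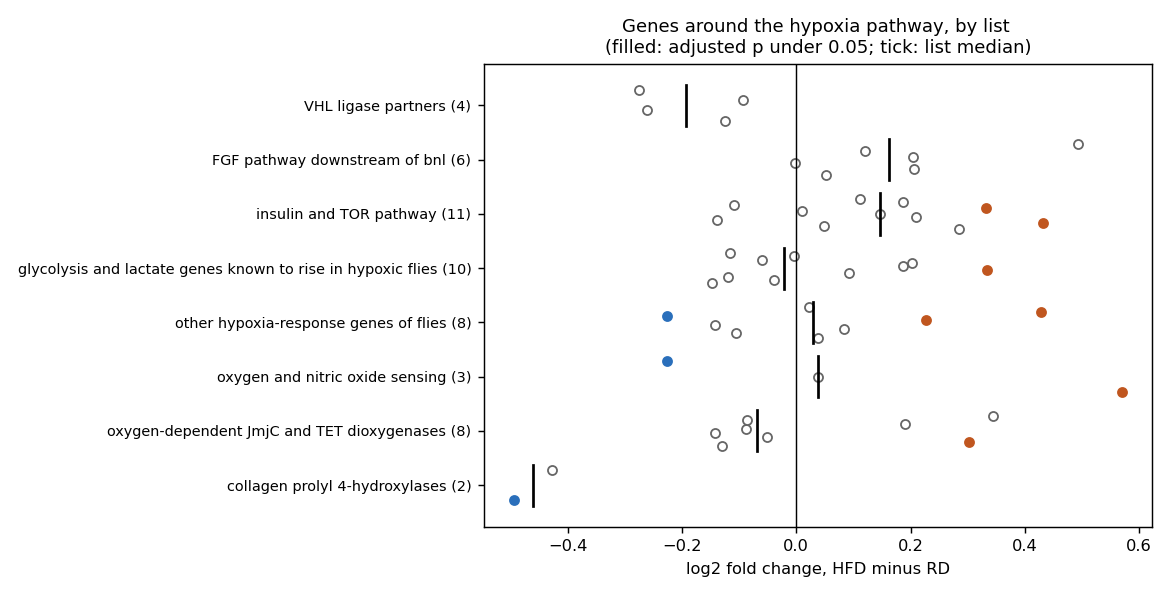
Log2 fold change, HFD minus RD (horizontal axis), of each tested gene of the lists around the hypoxia pathway, with the number tested, where filled points passed an adjusted p of 0.05 and the black tick is the list's median. Called genes are 7 of 50 to the right and 2 of 50 to the left; glob1 stands in 2 lists.

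Among 8 other genes known from hypoxic flies, 2 rose and 1 fell (median 0.030), and with median centring 1 was called higher and 3 lower. The repressor gene hairy, hry, had 1952, 1966 and 1822 on HFD, against 1596, 1335 and 1347 on RD. All HFD values were higher, and the rise of 0.43 ± 0.077 (limma, adjusted p = 0.00894) was called in 15 of 16 alternatives. The transcription factor gene SREBP rose by 0.23 ± 0.058 (adjusted p = 0.0306), with 1517, 1496 and 1489 on HFD, against 1365, 1205 and 1281 on RD. Its call was lost with median centring, where it was at 0.018, with eBayes without a trend, and without HFD array 1, 2 or 3 or RD array 2 or 3. The haemoglobin gene glob1 had 1248, 1237 and 1147 on HFD, against 1407, 1461 and 1381 on RD. It fell by 0.23 on the log2 scale, without overlap (SE 0.055; adjusted p = 0.0259). The call of glob1 was lost under quantile normalization, with eBayes without a trend, and without HFD array 2, HFD array 3, RD array 2 or RD array 3.

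Of 3 genes of oxygen and nitric oxide sensing tested, 1 rose and glob1, which is also in this list, fell. The guanylyl cyclase subunit gene Gycalpha99B had 872, 897 and 941 on HFD, against 621, 554 and 654 on RD. It rose by 0.57 ± 0.075 (limma, adjusted p = 0.00325), and only the model with the 3'/5' ratio lost the call among 16 alternatives (0.49, adjusted p = 0.0572). The other 6 named members, among them the nitric oxide synthase gene Nos, were under the filter.

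Hph belongs to a wide family of dioxygenases that need oxygen, and other members were compared. Of 8 JmjC and TET genes, JMJD6 rose (0.30 ± 0.082; limma, adjusted p = 0.0370), at 615, 589 and 611 on HFD, against 548, 468 and 459 on RD, and none fell (median -0.069), whereas with median centring 0 were called higher and 4 lower. Its call was lost with no filter, with median centring, with eBayes without a trend, and without HFD array 1, 2 or 3 or RD array 2 or 3. Kdm4A, a demethylase gene known to respond to hypoxia in flies, did not pass (-0.14 ± 0.063; adjusted p = 0.149). Of the collagen prolyl 4-hydroxylases, which act on another substrate, 2 of 8 were bright enough to test. PH4alphaEFB fell by 0.49 on the log2 scale (SE 0.087; adjusted p = 0.00813), with 591, 499 and 493 on HFD, against 756, 772 and 695 on RD. Its call was kept in 15 of 16 alternatives, all but the model with the 3'/5' ratio. There the estimate was -0.52 (limma, adjusted p = 0.0838), no smaller in size. PH4alphaPV was at -0.43 ± 0.13 (adjusted p = 0.0507).

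As a description of patterns, each gene's probe set with the highest mean signal was correlated with 9414 tested probe sets of other genes over the 6 arrays, which share diet and array scale. For scyl the highest Pearson r were with Lim1 (0.998) and Octbeta1R (0.997), both higher on HFD. For bnl they were with CG14440 (0.996) and Samuel (0.993), and for sima with mask and Mrtf (0.996 each). Hph 1638797_a_at was closest to CG3358 (0.999) and Prosbeta6 (0.994), tgo to CG13933 (0.994) and Ge-1 (0.990), and Vhl to sro (0.994) and JMJD5 (0.989). With 6 arrays such values are common: 440 probe sets had an r above 0.95 with scyl and 24 with tgo.

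**Figure D5:**
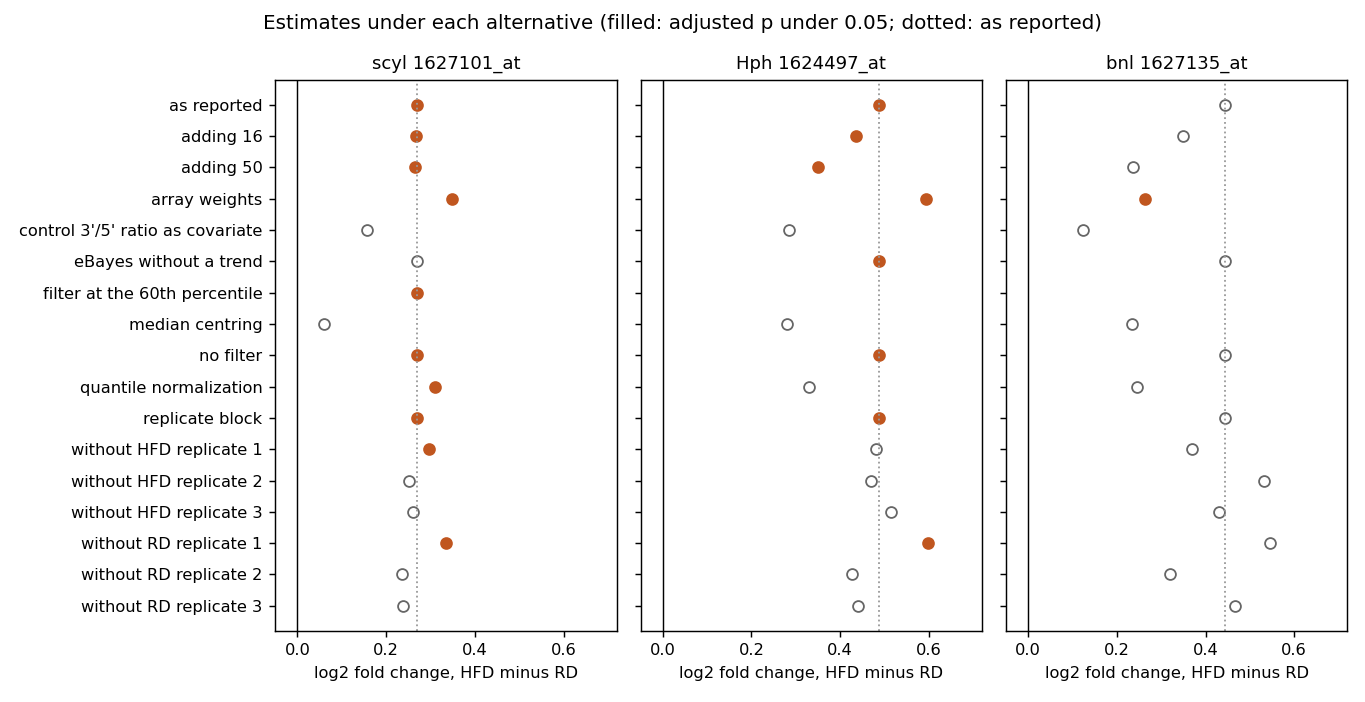
Log2 fold change, HFD minus RD (horizontal axes), of scyl, Hph 1624497_at and bnl 1627135_at as reported (top row, dotted line) and under each alternative way of processing, with filled points past an adjusted p of 0.05. All estimates lie above 0; scyl is called in 9 of 16 alternatives, Hph 1624497_at in 7 of 15 and bnl 1627135_at in 1 of 15.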

How the data were processed

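The authors deposited 1 intensity per probe set and array, on a linear scale, and used MAS5 for it, per the submitters' processing notes, which name no version. MAS5 combines the probes of a set and usually brings arrays to 1 average level: 2% trimmed means ran from 327 to 343, and the median signal 60.7 to 63.8 on HFD and 52.8 to 55.3 on RD. Of 18952 probe sets, 183 AFFX controls were left out. After adding 1 and taking log2, probe sets with a mean above the 40th percentile were kept (11261 of 18769). They were fitted by lmFit and trended eBayes of limma 3.58.1 (R 4.3.3), with no further normalization. Adding 1 shrinks fold changes a little, more so for dim probe sets. The 3 arrays per diet limit the precision. Intervals are at 95% and not adjusted.

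The members, lists and alternatives were chosen with earlier results of these data known. All probe sets of the members were named, and per list up to 4 genes past the threshold, or the gene with the smallest p where none passed, each by its probe set with the highest mean signal. Symbols came from the array annotation, with 13647 probe sets of 1 symbol, matched through gene IDs of the Release 6 reference table. Since the annotation names no build, no coordinates are given. The planned ratio of scyl to chrb could not be made, as chrb was not analysed here. Same-numbered arrays of the 2 diets correlated at 0.072, 0.10 and 0.027 in their deviations from the diet means, so the numbers were not taken as pairs. The fit was tested on simulated data. Plots used matplotlib 3.10.9 under Python 3.11.15.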

Additional observations from a re-analysis of the deposited data

Results flagged for a closer look

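Control probe sets outside the comparisons differed between diets. The bacterial spike-ins, added to each sample before hybridisation, had mean signals of 511 ± 111 (bioB), 1486 ± 291 (bioC) and 5561 ± 679 (bioD) on HFD, against 305 ± 14.9, 857 ± 30.6 and 3832 ± 107 on RD (SD, n = 3 each; exact permutation p = 0.1 each, the smallest that 3 against 3 arrays allow). All HFD arrays lay above all RD arrays, and no scaling to these controls was tried.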

How the results depend on the processing

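Of 11261 probe sets, 2196 passed, 66.0% of them higher. The count was 6129 with array weights (whose estimation stopped before convergence), 4995 with median centring, 1361 with the filter at the 60th percentile, 266 with the control 3'/5' ratio, and 1008 to 2707 without 1 array. The share higher was 52.0% with quantile normalization and 19.5% with median centring, which put the median log2 fold change of tested probe sets at -0.20. Hypoxia probe sets called, 2 as reported, numbered 4 with array weights, 1 with quantile normalization, with eBayes without a trend and with the stricter filter, 0 with the ratio, and 0 to 2 without 1 array; with median centring 3 were called, all lower (tgo, Vhl and Hph 1638797_a_at). List genes called, 9 as reported (7 higher, 2 lower), numbered 30 with array weights (18 higher, 12 lower), 23 with median centring (2 higher, 21 lower), 5 with eBayes without a trend, 0 with the ratio, and 3 to 17 without 1 array. Marker genes called, 29 as reported, numbered 12 with the ratio and 26 to 31 without 1 array. For scyl the lost calls were at 0.16 with the ratio, 0.27 with eBayes without a trend and 0.061 with median centring, and the estimate was 0.24 to 0.34 without 1 array. For Hph 1624497_at the lost calls were at 0.29 with the ratio, 0.28 with median centring and 0.33 with quantile normalization, and the estimate was 0.43 to 0.60 without 1 array. Sign changes were seen for sima (-0.063 with the ratio, -0.080 with median centring), for Hph 1638797_a_at (0.0033 with array weights, 0.024 with the ratio, 0.016 with quantile normalization) and for tgo (0.018 without HFD array 1; -0.091 to 0.018 over the fits without 1 array). The cause of these differences was not tested. With the replicate number as a block, 2560 probe sets, 2 hypoxia probe sets and 14 list genes passed; HFD array 2 deviated most like RD array 3 (0.12), not like RD array 2.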
